A study of Mus musculus with 4 samples.

Results

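The cells described here were T cells of mouse back skin that carried the CD3 complex but almost none of the transcripts that mark type 17 T cells. A cell barcode of a droplet library was taken as a member when it passed 2 quality limits, 200 detected genes or more and no more than 10% of its UMIs mitochondrial (UMIs are unique molecular identifiers, each a counted transcript), and held at least 2 UMIs of Cd3d, Cd3e and Cd3g together, under 2 UMIs of Cd163l1, Il17a and Il17f together, and less than 5% of its UMIs in Col1a1 and Krt14. These limits chose 441 of 23455 deposited barcodes, or of the 22819 that passed both quality limits and are called kept barcodes below. Since the limits read measured counts, the 3 Cd3 genes, the 3 type 17 genes, Col1a1 and Krt14 are not results below.

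The series compared control with Ovol1 null CD1 mice, Ovol1 being a gene for a transcription factor of epithelial cells, in untreated skin and after imiquimod. Each of the 4 groups is 1 library: control untreated with 221 members, control imiquimod with 49, labelled null untreated with 87 and labelled null imiquimod with 84. The treated mice were 7 to 8 weeks old and had a single 62.5 mg dose of 5% imiquimod cream on the shaved back, and the labels give no other age for the untreated mice; cells were sorted by flow cytometry before capture, and the sort gate, the time after the dose, the null and control alleles, the sex and the number of mice pooled are not given in the sources used here. Imiquimod activates Toll-like receptor 7 and is used to produce psoriasis-like inflammation in mouse skin.

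Mouse skin holds several kinds of T cell. Dendritic epidermal T cells sit among keratinocytes, carry an invariant gamma-delta receptor and resemble natural killer cells in their receptors and granules; CD8 T cells kill through granules and make interferon gamma; CD4 T cells include helper cells and the Foxp3 regulatory cells that are common around hair follicles; and dermal gamma-delta T cells make interleukin 17. NKG7, a granule membrane protein, is needed for full release of cytotoxic granules.

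The label of the null libraries was checked first. Over all kept barcodes Ovol1 was at 9.04 CPM (counts per 1000000 UMIs) in the control untreated library, 22.4 CPM in control imiquimod, 24.4 CPM in labelled null untreated and 44.9 CPM in labelled null imiquimod, so it was not lower in the libraries labelled null. The libraries count the 3′ ends of transcripts, and a deleted part elsewhere in the gene would not be seen there, so these counts do not check the genotype, and the text speaks of the labelled null throughout. The median depth of a kept barcode ranged from 4805 UMIs in control imiquimod to 8451 UMIs in labelled null imiquimod. No barcode sequence occurred in more than 1 library among the members, and 11 members (2.49%) shared their sequence with another kept barcode of another library.

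Control untreated had 3.57% of its kept barcodes among the members (95% Clopper-Pearson interval 3.12 to 4.07%), and control imiquimod had 0.864% (0.640 to 1.14%). Labelled null untreated had 1.64% (1.32 to 2.02%) and labelled null imiquimod 1.48% (1.18 to 1.83%). All intervals here cover counting error only, and with 1 library a group no difference between groups has a replicate check or a p-value. Shares also depend on the sort and on which other cells were captured. The number of type 17 T cells, chosen by the same limits but with at least 2 type 17 UMIs, was 104, 26, 104 and 179 in the same order of libraries. They made up 32.0% of both kinds together in control untreated, 34.7% in control imiquimod, 54.5% in labelled null untreated and 68.1% in labelled null imiquimod. Of 441 members, 55 held 1 type 17 UMI, and 35 barcodes with 2 such UMIs lay just outside.

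How far the members read as T cells differed between libraries. At least 2 genes of T cell receptor signalling were detected in 89.6% of members of control untreated, 81.6% of control imiquimod, 80.5% of labelled null untreated and 72.6% of labelled null imiquimod, against 97.1 to 100% of type 17 T cells and 0 to 3.92% of fibroblast barcodes (no Cd3 UMI and at least 5% of UMIs in Col1a1, Col1a2 and Col3a1). At the edge of the rule, 71 members had exactly 2 Cd3 UMIs and 32.4% of these had 2 receptor signalling genes; the value was 93.5% for the 370 with 3 or more, and 6.86% for the 1122 kept barcodes with a single Cd3 UMI outside the rule. Members with exactly 2 Cd3 UMIs had a median of 8397 UMIs, and those with more had 2896 UMIs. Median UMIs per member were 2821, 2253 and 2399 in the first 3 libraries and 8130.5 in labelled null imiquimod. The Col1a1 and Krt14 limit left out 1 barcode that met the Cd3 and type 17 limits.

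Transcripts of other cells were found among members of every library. The keratinocyte list summed to 5406 CPM in members of control untreated, 21841 CPM in control imiquimod, 19850 CPM in labelled null untreated and 38300 CPM in labelled null imiquimod, with 0 of its 10 genes at 0 in any library. The neutrophil list (S100a8 and S100a9 with 5 others) summed to 19.3, 138, 5.25 and 14027 CPM, and the dendritic and Langerhans list to 5659, 435, 2299 and 6544 CPM. The fibroblast list was highest in labelled null untreated, with 17599, 9127, 29022 and 18803 CPM in the same order, and the macrophage list in control untreated, with 383, 10.2, 163 and 103 CPM. A supported subset was therefore set beside every result: members with at least 2 receptor signalling genes, less than 5% of UMIs in the keratinocyte and fibroblast lists and less than 0.5% in the macrophage and dendritic lists. It held 325 of 441 members: 180 of 221, 37 of 49, 66 of 87 and 42 of 84 in the 4 libraries. The members outside it had a median of 8341 UMIs, against 2651 UMIs inside. The subset still held other cells' transcripts. Its keratinocyte list summed to 3283, 10753, 9655 and 6667 CPM, highest in control imiquimod. Its fibroblast list summed to 3032, 3302, 3722 and 14536 CPM, highest in labelled null imiquimod. The part of these transcripts in the results was not tested. Part of the members, most of all in labelled null imiquimod, thus went against the T cell label, and values that differ between all members and the subset are given for both.

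**Figure D1:**
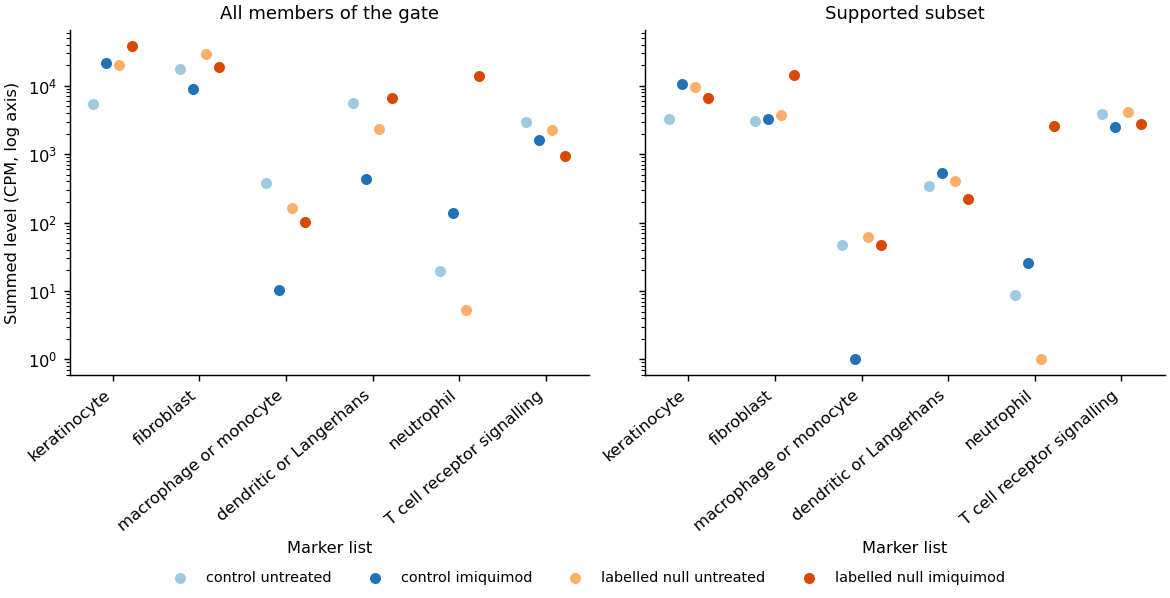
Summed level of 5 marker lists of other cells and of the T cell receptor signalling list (x axis) in CPM on a log axis, 1 point per library, for all members (left) and the supported subset (right); sums of 0 are drawn at 1 CPM. The keratinocyte sum of labelled null imiquimod stands at 38300 CPM in all members and at 6667 CPM in the subset, and its neutrophil sum at 14027 and 2603 CPM.

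Nkg7 was a granule transcript found widely in every library. Among members it stood at 722 CPM (598 UMIs) in control untreated, 496 CPM in control imiquimod, 556 CPM in labelled null untreated and 253 CPM in labelled null imiquimod. It was found in 33.9%, 38.8%, 25.3% and 36.9% of members, and in 0 to 1.09% of fibroblast barcodes, whose median depths were 5111.5 to 7293 UMIs. With every cell thinned to 1000 UMIs, the shares were 25.3%, 32.7%, 21.8% and 21.4%, and no cell was too shallow to thin. In the supported subset Nkg7 stood at 936, 804, 1072 and 749 CPM, so the low level of labelled null imiquimod among all members was much less marked there. Ctsw, the protease cathepsin W, was at 512, 553, 472 and 93.2 CPM among members and 695, 873, 900 and 310 CPM in the subset.

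Of the 14 epidermal T cell genes counted here, all were found among members of every library, except Klra5 in control imiquimod (0 UMIs). Fcer1g, an adaptor chain of receptors that epidermal T cells share with natural killer and myeloid cells, was at 550, 420, 386 and 176 CPM among members and found in 55 of 221, 15 of 49, 20 of 87 and 25 of 84 of them, against a share of 3.16 to 4.82% of fibroblast barcodes. After thinning the shares were 19.0%, 26.5%, 18.4% and 15.5%. In the subset, where barcodes with many myeloid transcripts are left out, it was at 537, 631, 713 and 342 CPM. Cd7, a surface receptor of T and natural killer cells, was at 315, 302, 714 and 260 CPM among members and highest in labelled null untreated there and in the subset (373, 484, 1371 and 684 CPM). Itgae, the integrin chain CD103 that binds keratinocyte E-cadherin, was at 214, 174, 126 and 37.3 CPM, and in 44.3%, 42.9%, 36.8% and 26.2% of members. Tyrobp, another adaptor chain, was at 610, 317, 199 and 116 CPM among members. In the subset of labelled null imiquimod 1 Tyrobp UMI was left, with 301, 55 and 66 UMIs in the other subsets.

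Xcl1 and Gzmc came from fewer cells, each with many copies. Xcl1, a chemokine for cross-presenting dendritic cells, was at 721, 220, 307 and 92.1 CPM and found in 12.7%, 22.4%, 17.2% and 9.52% of members. Gzmc, a granzyme, was at 1619 CPM (1341 UMIs) in control untreated, 2343 CPM (458 UMIs) in control imiquimod, 890 CPM (339 UMIs) in labelled null untreated and 37.3 CPM (34 UMIs) in labelled null imiquimod. The numbers of members with a Gzmc UMI were 23 of 221, 11 of 49, 10 of 87 and 1 of 84, so all 34 UMIs of labelled null imiquimod came from 1 cell. Klrd1, which encodes the killer receptor CD94, was at 51.9, 153, 60.4 and 62.5 CPM, and in 9.50%, 24.5%, 13.8% and 28.6% of members. Like that of Gzmc, its CPM was highest in control imiquimod, but it was not lowest in labelled null imiquimod. Granzymes and killer receptors belong to families of similar genes, and the counts of Gzmc and of Kir3dl1 and Kir3dl2 may be divided among copies.

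**Figure D2:**
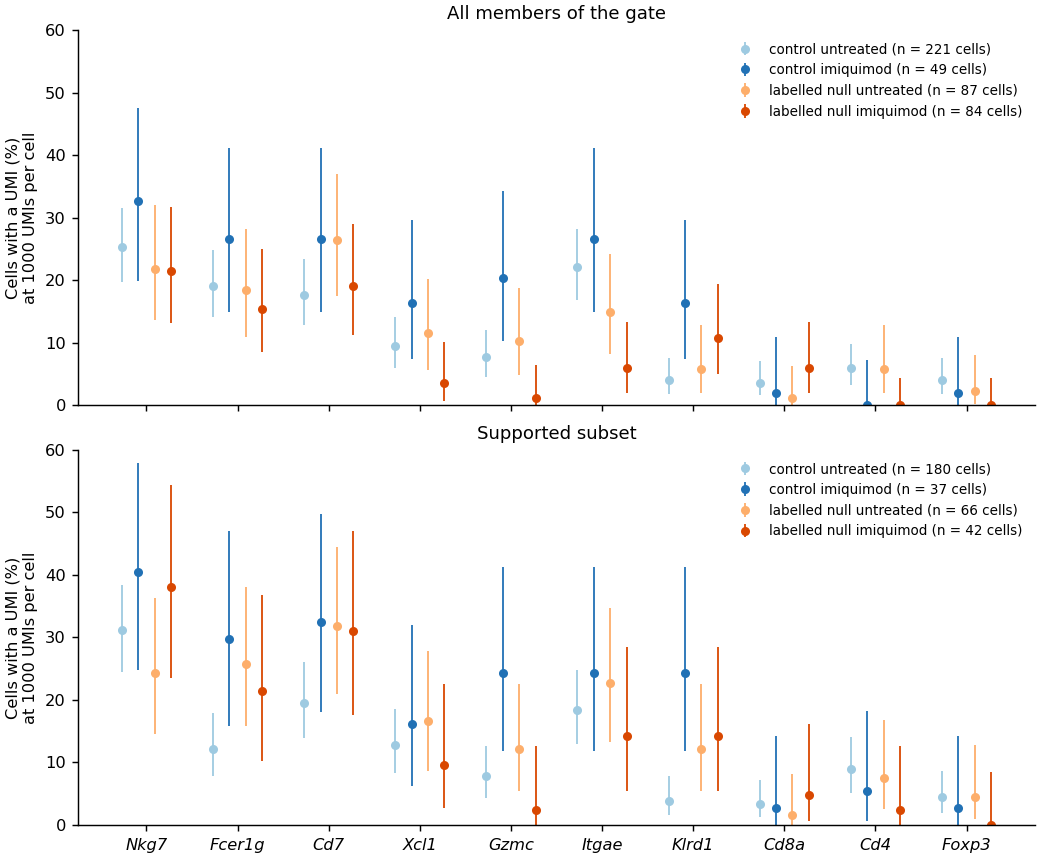
Share of cells (%) with at least 1 UMI of 10 genes after each cell was thinned to 1000 UMIs, for all members (top) and the supported subset (bottom); points are libraries and bars 95% Clopper-Pearson intervals. Nkg7 lies between 21.4% and 32.7% of members in the 4 libraries, while Cd8a, Cd4 and Foxp3 lie at 5.95% or less.

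The coreceptors were rare. Cd8a was at 44.7 CPM (37 UMIs in 13 cells) in control untreated, 10.2 CPM (2 UMIs in 1 cell) in control imiquimod, 10.5 CPM (4 UMIs in 2 cells) in labelled null untreated and 43.9 CPM (40 UMIs in 5 cells) in labelled null imiquimod, and no fibroblast barcode held a Cd8a UMI. Cd4 was at 60.4, 10.2, 23.6 and 8.78 CPM, in 39, 2, 9 and 6 cells, or 17.6%, 4.08%, 10.3% and 7.14% of members. Thinning to 1000 UMIs took the Cd4 shares to 5.88%, 0%, 5.75% and 0%, with upper interval ends of 7.25% and 4.30% where no cell was left. The Cd4 shares were thus lower in both imiquimod libraries before and after thinning, but at a level near 1 UMI a cell, from which no change is read. Foxp3, the regulatory T cell factor, was found in 19, 2, 5 and 1 cells. Over all libraries 28 members held Cd8a or Cd8b1 alone, 53 Cd4 alone, 3 both and 357 neither, so for 81.0% of members the coreceptor was not detected. At 1 to a few UMIs a cell, absence of a coreceptor UMI does not show that the cell lacks it. The constant genes of the T cell receptor (Trac, Trbc1, Trbc2, Trdc and the Tcrg genes) were not analysed here, so alpha-beta and gamma-delta cells were not told apart.

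Within the supported subset, cells split by a detected transcript carried different companions. The following values pool the 4 libraries, and the splits were read from the same counts, so they describe the cells and are not tests. The 72 cells with Fcer1g held Gzmc at 6857 CPM, Xcl1 at 2528 CPM, Cd7 at 1784 CPM, Tyrobp at 1356 CPM and Kir3dl1 at 164 CPM, whereas the 253 cells without held 13.7, 13.7, 172, 2.50 and 0 CPM. Of those 72 cells 64 also had Nkg7, 50 had Xcl1, 40 had Klrd1 and 29 had Gzmc. In each library Xcl1, Cd7 and Gzmc were higher in cells with Fcer1g than in cells without. For Gzmc in labelled null imiquimod this order rests on 1 of 42 subset cells, the only one that held it. The cells with Fcer1g were deeper, with a median of 3357.5 against 2537 UMIs.

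The 22 cells with Cd8a or Cd8b1 and no Cd4 had Nkg7 in 17 cells (2755 CPM), Ccl5 in 9 cells (2382 CPM), Ly6c2 in 8 cells and Ifng in 7 cells (337 CPM). Of all 325 subset cells 129 (39.7%) had Nkg7. Ccl5 is a chemokine of activated CD8 T cells, and Ifng encodes interferon gamma. Fcer1g and Gzmc were each found in 2 of these 22 cells, and Blk, a kinase of interleukin 17 cells, in none of them. The 48 cells with Cd4 alone had the costimulatory receptors Cd28 in 30 cells (677 CPM), Icos in 32 cells (761 CPM) and Tnfrsf4 in 21 cells (612 CPM). Shares of Ccl5, Ly6c2, Ifng and these receptors in the other subset cells are not given, so their counts have no background beside them. The number of these 48 cells that held Foxp3 is not given either. In the 24 cells with Foxp3, Tnfrsf4 was at 2192 CPM, Ikzf2 at 1303 CPM, Ctla4 at 1090 CPM and Gzmb, a granzyme also made by regulatory T cells, at 2029 CPM. Of the 325 subset cells 44 held Gzmb, 35 held Gzmc and 2 held both. Gzmb was found in 2 of the 72 cells with Fcer1g and in 14 of the 24 with Foxp3.

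A last set of 156 subset cells had neither coreceptor nor Nkg7. Tmem176b was found in 76 of them, with no share of the other subset cells beside it. Blk was found in 37 of the 156 cells and 5830411N06Rik, a scavenger receptor gene, in 45. Blk was at 119 CPM there and at 31.3 CPM in cells with Nkg7, and 5830411N06Rik at 178 and 19.6 CPM. Both genes also stood higher in type 17 T cells than in members in every library, though for 5830411N06Rik in control imiquimod the interval of the ratio, members over type 17 T cells, was 0.299 to 1.04. The members therefore include cells with other type 17 genes whose Cd163l1, Il17a and Il17f counts were under the limit.

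**Figure D3:**
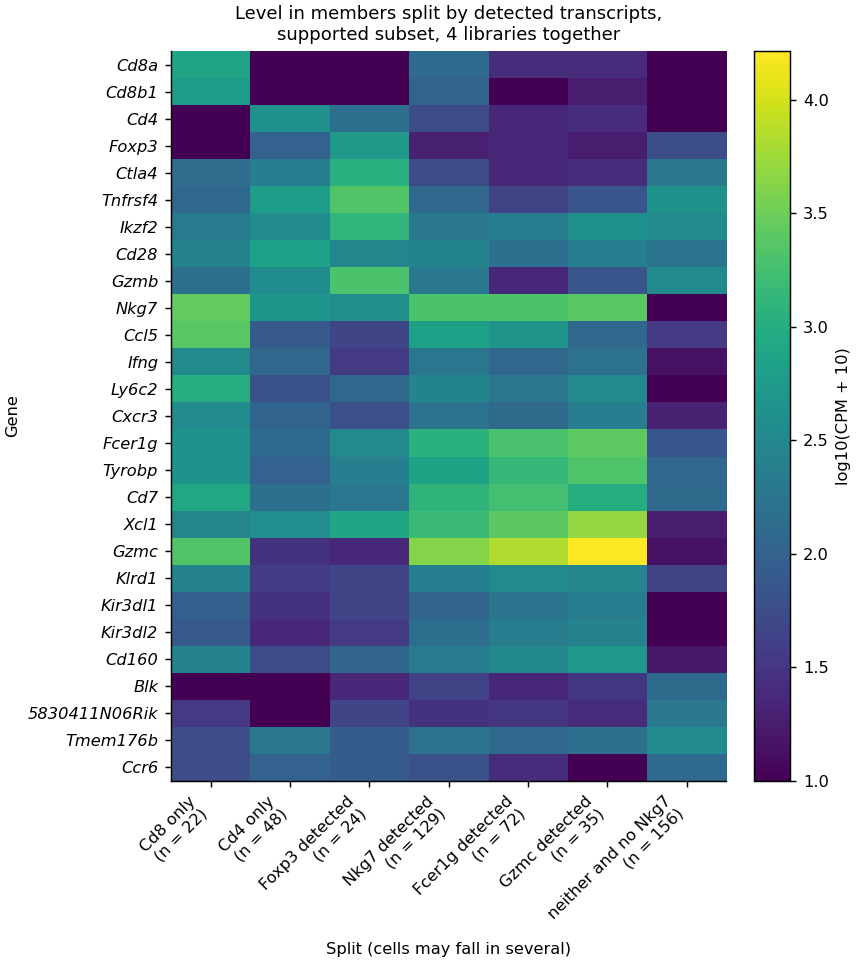
Level of 27 genes (rows) in 7 overlapping splits of the supported subset (columns, with their numbers of cells), as log10 of CPM plus 10 with the 4 libraries pooled. Gzmc, Xcl1, Cd7, Fcer1g and Tyrobp are bright in the Fcer1g and Gzmc columns, Ccl5 and Ly6c2 in the Cd8 column, and Gzmb, Ctla4 and Tnfrsf4 in the Foxp3 column.

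The members were next set beside the type 17 T cells of the same library. Of 7652 genes measured, 944 (12.3%) were higher and 894 (11.7%) lower in the members in 4 of 4 libraries. Cxcr3, a chemokine receptor of interferon gamma cells, had 56 UMIs in members and 4 in type 17 T cells of control untreated, 10 and 0 in control imiquimod, 18 and 0 in labelled null untreated, and 9 and 1 in labelled null imiquimod. Ifng had 81, 8, 3 and 7 UMIs in members and 0, 0, 0 and 1 in type 17 T cells. It was at least 10.9-fold higher in members of control untreated, against the floor of 3 UMIs per library. The lower interval end of the ratio was 0.871 in control imiquimod and 0.299 in labelled null untreated, so a difference was not detectable in these 2 libraries at this depth. Others at the head of the list were P2ry14, Ly6c2, Serpinb2 and Ccl6; Ccl6 and the keratinocyte genes Wnt10a and Cysrt1 also there are made by other cells of skin. Lower in the members of every library were Blk (3.03 to 14.3-fold), Pdcd1, the checkpoint receptor PD-1 (2.90 to 14.8-fold), Cxcr6, a receptor of resident T cells (2.88 to 10.6-fold), and Cd247, the zeta chain of the T cell receptor (3.59 to 4.37-fold). Ldlrad4, Sox13, Bcl2a1a, Ppt2 and 4930503L19Rik were also on the lower list. Rgs1 and Ltb, too, had the lower CPM in members of all 4 libraries. For Rgs1 the ratio, members over type 17 T cells, was 0.685, 0.380, 0.480 and 0.195. For Ltb it was 0.487, 0.840 (0.606 to 1.17), 0.314 and 0.198. The largest Blk, Pdcd1 and Cxcr6 folds were those of labelled null imiquimod. The receptor signalling list there summed to 932 CPM in members, 2760 CPM in the subset and 2741 CPM in type 17 T cells. The part of this gap in the folds was not tested.

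The epidermal genes were next counted by library. The share of all measured genes that were higher in members is not given for single libraries, so the counts have no background beside them. Of the list genes with 20 UMIs or more, 9 of 13 in control untreated, 7 of 11 in control imiquimod, 7 of 12 in labelled null untreated and 1 of 12 in labelled null imiquimod had a higher CPM in members than in type 17 T cells, with median log2 ratios of 0.91, 1.13, 0.54 and -1.41. In the supported subset, set beside the type 17 T cells that met the same limits (99, 22, 99 and 162 cells), these were 9 of 13, 7 of 11, 8 of 12 and 4 of 11, with medians of 1.10, 1.37, 1.36 and -0.29. Itgae, Tmem176a and Cish, a cytokine signalling inhibitor, had the lower CPM in members of all 4 libraries. Tmem176a is also on the list of other type 17 genes, and its ratio in control imiquimod was 0.928 (0.538 to 1.64).

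Nkg7 was 3.82-fold higher in members than in type 17 T cells in control untreated (2.95 to 5.04), at least 16.5-fold higher in control imiquimod, where type 17 T cells held 0 UMIs, and 3.41-fold higher in labelled null untreated (2.46 to 4.81). In labelled null imiquimod the direction depended on the subset: Nkg7 was 1.49-fold lower among all members (253 against 378 CPM) and 1.59-fold higher (1.31 to 1.92) in the subset (749 against 471 CPM). Fcer1g was 6.12, 8.37 and 4.09-fold higher in the first 3 libraries. In labelled null imiquimod it was 1.72-fold lower among all members, and the subset gave a ratio of 1.03 (0.783 to 1.34). Cd7 went there from 2.22-fold lower to a ratio of 0.963 (0.798 to 1.16). Tyrobp was higher among all members of every library, 5.39-fold in labelled null imiquimod (3.38 to 8.96), but the subset of that library held 1 UMI against 12. Gzmc was 6.28-fold, 234-fold (type 17 T cells held 1 UMI; interval 41.7 to 9251) and 1.60-fold higher in the first 3 libraries. In labelled null imiquimod it was 16.5-fold lower among all members, where type 17 T cells held 628 UMIs in 7 cells, and 5.03-fold lower in the subset.

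Counted in cells, Fcer1g was found in 55 members and 5 type 17 T cells of control untreated, 15 and 4 of control imiquimod, 20 and 4 of labelled null untreated, and 25 and 47 of labelled null imiquimod. The share of T cells with Fcer1g that lay among the type 17 cells was 8.33% (2.76 to 18.4%), 21.1% (6.05 to 45.6%), 16.7% (4.74 to 37.4%) and 65.3% (53.1 to 76.1%), beside 32.0%, 34.7%, 54.5% and 68.1% of all T cells. Under the limits of the subset on both sides it was 15.2%, 7.69%, 18.2% and 75.9%. Type 17 cells made up 35.5%, 37.3%, 60% and 79.4% of all T cells under those limits. The value of control imiquimod rested on 1 type 17 T cell with Fcer1g (interval 0.195 to 36.0%). Klrd1 gave 16.0%, 29.4%, 36.8% and 74.2% over all cells. Free type 17 RNA moved in the same direction: a type 17 UMI was found in 2.02%, 1.96%, 3.56% and 12.0% of fibroblast barcodes, and its part in these shares was not tested. The 47 type 17 T cells with Fcer1g in labelled null imiquimod held a median of 22 type 17 UMIs.

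**Figure D4:**
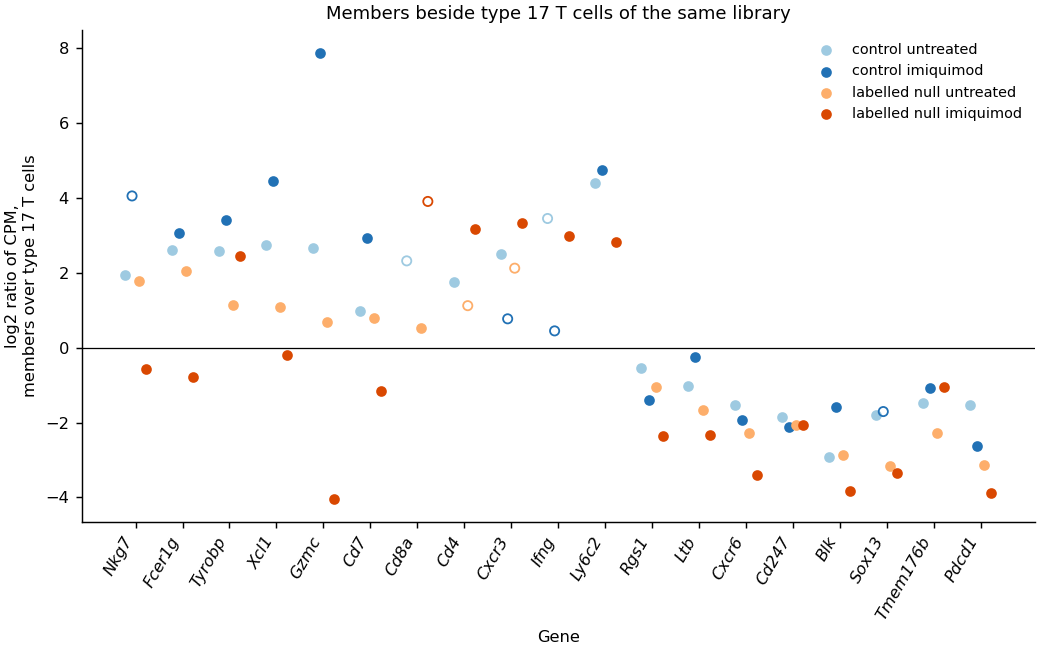
Log2 ratio of CPM in all members over type 17 T cells of the same library (y axis) for 19 genes (x axis), 1 point per library; open points are bounds against a floor of 3 UMIs where 1 side held 0, and ratios of 3 or fewer UMIs against 0 are not drawn. Blk, Cxcr6, Cd247 and Pdcd1 lie below 0 in every library, and Nkg7, Fcer1g, Gzmc and Cd7 lie above 0 in 3 libraries and below it in labelled null imiquimod, where Nkg7 was higher in the subset.

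Imiquimod against untreated skin was compared in each genotype on the summed UMIs of the members. A gene was measured where the 2 libraries' members held 20 UMIs or more of it, and counted as higher or lower past a 2-fold CPM ratio. In control mice 24.2% of 5272 measured genes were past 2-fold, 7.15% higher and 17% lower under imiquimod, with a median log2 ratio over all genes of -0.16. Interferon-stimulated genes led: 17 of 20 measured were higher and 0 lower, with a median log2 ratio of 2.36, and in the subset 11 of 14 were higher with a median of 2.16. Of the 4007 genes measured in the subset 7.04% were higher and 14.5% lower. The keratinocyte list was also higher, in 9 of 9 genes among members (median 1.91) and in 7 of 9 in the subset (median 1.57). The part of keratinocyte RNA in these results was not tested.

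Isg15, a ubiquitin-like antiviral protein, stood at 20.5 CPM (17 UMIs) in untreated and 327 CPM (64 UMIs) in imiquimod members, a 16.0-fold ratio (9.23 to 29.1). Irf7, the factor that amplifies interferon production, went from 13.3 to 261 CPM, or 19.7-fold (10.1 to 41.8). Bst2, the tether of budding viruses, went from 57.9 to 537 CPM, or 9.27-fold (6.53 to 13.3). Mndal, Lgals3bp and Ifi27l2a were 2.47, 2.41 and 2.35 higher on the log2 scale. BC100530 had 87 UMIs against 0, at least 122.9-fold higher, but 62.1% of them lay in 1 cell.

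In the labelled null 24.5% of 6016 measured genes were past 2-fold, 12.4% higher and 12.1% lower under imiquimod, and the median over all genes was -0.04. Scaling by TMM moved it by 0.16 and turned the share of higher genes among those past 2-fold from 50.6% to 62.9%. Of 22 measured interferon-stimulated genes 20 were higher and 0 lower, with a median log2 ratio of 3.29, or 2.69 with genes at 0 UMIs in untreated members set at their bound; in the subset, where 13.1% of 2683 genes were higher and 10.3% lower, 12 of 14 were higher with a median of 3.51. Isg15 had 3 UMIs in untreated (7.87 CPM) and 257 UMIs in imiquimod members (282 CPM), a ratio of 35.8 with an interval of 12.1 to 175. Irf7 went from 10.5 to 267 CPM, 25.4-fold (9.79 to 93.9), and Bst2 from 57.7 to 660 CPM, 11.4-fold (7.48 to 18.4). Ifit1 and Ifit3, which bind viral RNA, had 25 and 26 UMIs against 0, at least 3.48 and 3.62-fold higher.

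Interferon-stimulated genes were also higher under imiquimod in other cells of the same libraries. In all other kept barcodes 24 of 25 were higher in control (6.59% of 14619 genes were) and 25 of 25 in the labelled null (7.62% of 14797 genes), with medians of 2.32 and 2.76. In fibroblast barcodes 23 of 23 were higher in control (11.3% of 11741 genes) and 20 of 22 in the labelled null (5.86% of 10718 genes). Isg15 was at 16.8, 155, 13.2 and 335 CPM in all other kept barcodes, and the fibroblast barcodes had it at 19.1, 124, 14.7 and 245 CPM. Beside the imiquimod members' 327 and 282 CPM, free RNA from other cells was not separated. Between the imiquimod libraries the members' interferon-stimulated genes had a median log2 ratio of -0.59 (labelled null over control, 1 of 22 higher and 5 lower), and -0.03 in the subset. MHC class I and peptide loading genes were also higher, 3 of 13 in control (median 0.71) and 6 of 14 in the labelled null (median 0.96), with 0 lower in either. Psmb8, an immunoproteasome subunit, went from 322 to 501 CPM in control and from 234 to 626 CPM in the labelled null.

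**Figure D5:**
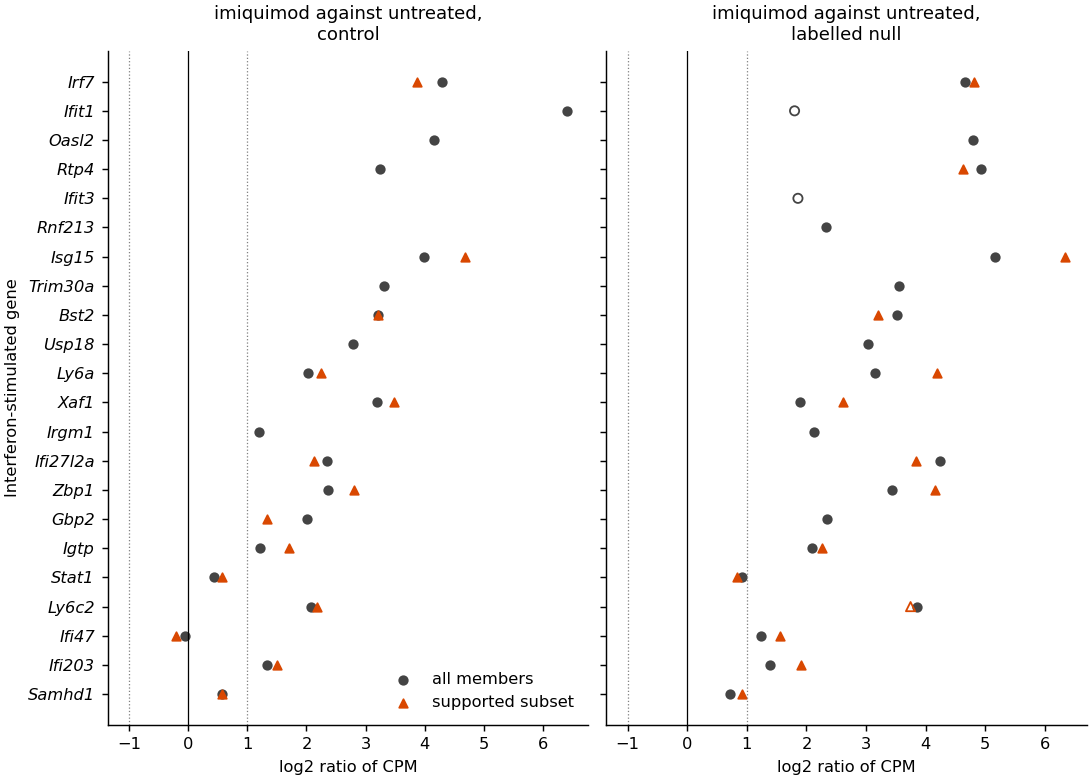
Log2 ratio of CPM, imiquimod over untreated, for the measured interferon-stimulated genes (rows) in control (left) and labelled null (right) members; circles are all members, triangles the supported subset, open symbols bounds against a floor of 3 UMIs, and dotted lines mark 2-fold. Irf7, Isg15 and Bst2 lie past 3 on this scale in both genotypes in all members.

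The interferon-stimulated response element, read as GAAANNGAAA on either strand, was searched in the RefSeq promoters (300 bases, from 250 before to 50 after the start; GRCm38.p6), because these genes moved together. It was present in 11 of 18 genes of the interferon list that had a promoter in the table (61.1%), in 3 of 22 genes of the epidermal and cytotoxic lists (13.6%), in 3.99% of 27025 genes and in 3.44% of 32851 promoters. Elements can overlap each other, as in Isg15 and Bst2, and a match describes the letters only. A single window of 30 bases per gene is shown for genes with a match whose values are given here. Windows run 5′ to 3′ in the gene's direction, with the element in capitals, and TTTCNNTTTC is the same element on the other strand. No match was listed for Irf7, Mndal, Lgals3bp or Ifi27l2a, which may have had no promoter in the table. Ifit1 and Ifit3 each had a further match that is not shown. They lie at chr4:156200865-156200894 (Isg15, minus strand), chr8:71537577-71537606 (Bst2, minus), chr19:34640794-34640823 (Ifit1, plus), chr19:34583397-34583426 (Ifit3, plus), chr11:58199512-58199541 (Igtp, plus) and chr3:142620594-142620623 (Gbp2, plus).
Isg15: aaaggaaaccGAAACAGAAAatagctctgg
Bst2: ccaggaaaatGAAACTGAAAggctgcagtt
Ifit1: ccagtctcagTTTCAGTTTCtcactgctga
Ifit3: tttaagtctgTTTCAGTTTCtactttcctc
Igtp: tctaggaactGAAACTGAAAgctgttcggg
Gbp2: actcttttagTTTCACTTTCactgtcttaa
Igtp and Gbp2, both guanosine triphosphatases of cell-autonomous defence, were 2.31-fold (1.04 to 4.88) and 4.04-fold (2.08 to 7.82) higher under imiquimod in control members and 4.26-fold (1.71 to 13.7) and 5.10-fold (2.07 to 16.3) higher in labelled null members.

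T cell effector genes were lower under imiquimod in control members. In the list of cytokines and chemokines 11 of 17 were lower and 0 higher, with a median log2 ratio of -1.26 (8 of 13 in the subset, median -1.29). Ccl5 had 349 UMIs (421 CPM) in untreated and 4 UMIs (20.5 CPM) in imiquimod members, 20.6-fold lower (7.97 to 76.0), and Ccl4, a macrophage-attracting chemokine, was 8.14-fold lower (3.68 to 22.4). Ccl1, a chemokine, had 256 UMIs in untreated members and 2 in imiquimod members, but the 256 UMIs came from 8 cells and 39.5% of them from 1. Xcl1 was 3.28-fold lower (2.40 to 4.57) and 2.94-fold lower in the subset. The share of members with Xcl1 went the other way, 22.4% (11.8 to 36.6%) under imiquimod against 12.7% (8.59 to 17.8%). In the subset it was 27.0% against 14.4%. Icos was 2.67-fold lower (1.85 to 3.99). Cell cycle genes were lower in 11 of 13 and higher in 0, and Top2a, a replication enzyme, had 60 UMIs against 1. Cd4, Cd8a and Cd8b1 were each lower, with 2 UMIs left of each. In the epidermal list, of 13 measured, 1 was higher and 1 lower, with a median of -0.17 (0.15 in the subset). Klrd1 was 2.96-fold higher (1.79 to 4.82), and Gzmc 1.45-fold higher (1.30 to 1.61). Dendritic genes were lower in 7 of 8. Of these, 63.7% of the Cd207 UMIs came from 1 cell, as did 98.0% of those of Lyz1, a macrophage gene outside the list, while the 279 H2-Eb1 UMIs lay in 29 cells. The subset was chosen with a limit on this list, so its median of 0.48 is partly set by that limit.

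In labelled null members the order was different, and it depended on the subset. The epidermal list had 8 of 13 lower and 0 higher among all members (median -1.35), and 7 lower and 1 higher in the subset (median -1.00). Gzmc was 23.9-fold lower (16.7 to 35.0) among members and 10.8-fold lower (7.61 to 15.9) in the subset; without the 1 cell that held it, labelled null imiquimod would have 0 UMIs. Cd7 was 2.75-fold lower (2.30 to 3.28) and 2.0-fold lower in the subset, Xcl1 3.33 and 2.67-fold lower, and Ctsw 5.07 and 2.91-fold lower. Receptor signalling genes were lower in 9 of 13 among members (median -1.30), and in 4 of 13 in the subset (median -0.46), which was itself chosen on detecting these genes. The fibroblast list was higher in 8 of 8 in the subset (median 1.74). Ikzf2, a factor of regulatory and other T cells, was 6.01-fold lower (4.15 to 8.86) and 4.16-fold lower in the subset. Cd8a was higher with 40 UMIs against 4, a 4.18-fold ratio (1.51 to 16.1), and Ly6c2 with 69 UMIs against 2, a ratio of 14.4 (3.84 to 121); Ly6c2 has close copies, and its counts are uncertain. Cytokines and chemokines were higher in 3 and lower in 2 of 10.

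The highest ratios in these members were of S100a8, S100a9 and BC100530, which neutrophils make, S100a8 and S100a9 also in inflamed keratinocytes, and of keratins of thickened epidermis. S100a8 had 8093 UMIs against 0 (at least 1128-fold higher) and Krt16, 1 of those keratins, had 1542 UMIs against 1. In all other kept barcodes of labelled null imiquimod S100a8 was at 5094 CPM, beside 8877 CPM in its members, and 25.9% of the members' S100a8 UMIs lay in 1 cell. In the subset 407 of the 8093 S100a8 and 7 of the 1542 Krt16 UMIs were left.

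In untreated skin 16% of 5912 measured genes were past 2-fold between labelled null and control members, 6.48% higher and 9.54% lower, the smallest share of the 4 comparisons. Cytokines and chemokines were lower in 12 of 16 and higher in 0 (median -1.81), and in the subset lower in 7 of 13 (median -1.21), where 4.99% of 4312 genes were higher and 7.63% lower. Ccl5 had 4 UMIs (10.5 CPM) against 349 (421 CPM), 40.1-fold lower (15.5 to 148) and 27.4-fold lower in the subset. Ifng had 3 UMIs against 81, a ratio of 0.0805 (0.0163 to 0.244). The 349 Ccl5 UMIs lay in 30 of 221 control cells and the 4 in 3 of 87. Dendritic genes were lower in 6 of 8 (median -1.27) and macrophage genes in 3 of 4, with 0 higher in either. H2-Eb1 had 1 UMI against 279 in 29 control cells. In the subset, which has a limit on both lists, 1 of 5 dendritic genes was lower (median 0.38). The coreceptors were lower in 3 of 3, and in 2 of 3 in the subset. The part of other cells' RNA in these values was not tested. Interferon-stimulated genes were lower in 8 of 12 and higher in 0 (median -1.23), and in the subset lower in 4 of 10 (median -0.88). Cd7 was higher, 714 against 315 CPM, 2.27-fold (1.90 to 2.70) and 3.67-fold in the subset. Of the 13 measured genes of the epidermal list Cd7 alone was past 2-fold higher, and 2 were lower (median -0.49; -0.05 in the subset). Calm4, a keratinocyte gene, was 2.94 higher on the log2 scale, beside a keratinocyte list that was higher in 9 of 9 genes in the same comparison; its part in the result was not tested.

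Under imiquimod 27.6% of 5322 measured genes were past 2-fold between labelled null and control members, 16.6% higher and 11% lower; TMM scaling moved the median over all genes by 0.18 and the share of higher genes among those past 2-fold from 60.1% to 72.3%. The epidermal list was lower in 10 of 12 among members (median -1.37) and in 4 of 11 in the subset (median -0.64), where 14.9% of 2165 genes were higher and 6.84% lower and where the fibroblast list was higher in 6 of 7 (median 2.25). Gzmc was 62.8-fold lower (44.3 to 91.8), with 11 of 49 control cells and 1 of 84 labelled null cells positive, and 24.5-fold lower in the subset. Ltb, a lymphotoxin chain, was 5.60-fold lower (4.16 to 7.55) and 2.63-fold lower in the subset, and Ctsw 5.93-fold (4.42 to 7.97) and 2.82-fold lower. Nkg7 was 1.96-fold lower (1.53 to 2.49) among members and 1.07-fold lower in the subset, with an interval of 0.823 to 1.39. Krt6b, S100a8 and Krt6a headed the higher genes with 903, 8093 and 800 UMIs, of which 3, 407 and 38 were in the subset. Fabp4 had 253 UMIs against 0, and 96.0% of them lay in 1 cell, which was in the subset (247 UMIs there). The 4 comparisons share libraries in pairs, so their values are not independent of each other.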

How the data were processed

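The authors deposited 1 table of raw UMI counts per gene and cell barcode (27998 genes) that holds the 4 droplet libraries (10x 3′ kit), and the barcode suffix names the library, per the labels. Cell Ranger 2.1.0 and the mm10 build are named in the submitters' processing notes; any equalising of depth between libraries was not given in the sources used here. No sample column was left unused.

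Members were chosen with the limits given in the report, and the members and gene lists (28 lists) were chosen with earlier results of these data known. Their UMIs were summed per library. Levels are counts per 1000000 of the members' UMIs (CPM) with exact Poisson intervals, ratios have exact conditional binomial intervals and shares have Clopper-Pearson intervals, all at 95%, and all cover counting error only. Groups were not tested against each other, since each is a single library. A gene at 0 UMIs in a library was given a floor of 3 UMIs per library for bounds. Fitted log2 values use a prior count of 0.5. Genes needed 20 UMIs in the compared pair of libraries, and the 8 genes of the limits were left out of counts. Shares were also computed after thinning each cell to 1000 UMIs with a fixed seed.

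Genes named were the 8 with the largest ratio each way per comparison (at least 40 UMIs, interval wholly past 1, CPM at least that of all other kept barcodes), the 4 list members with the most UMIs, the coreceptors and the epidermal list; for members beside type 17 T cells, the 10 most consistent each way. Of these the text gives the ones that lead a group; some results are not reported here. Genes named from the splits and the share of T cells on either side of the type 17 limit were chosen after their values were seen. The supported subset was added after seeing the data.

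No doublets were removed in the main values; Scrublet (scanpy 1.11.5, expected rate 0.05) called 27 of 441 members and was run as an alternative. The ratio code was tested on simulated counts. Python 3.11.15, numpy 2.4.6, scipy 1.17.1, R 4.3.3 and edgeR 4.0.16 (for TMM only) were used. Of 20 listed receptor signalling symbols and 16 epidermal symbols, 13 and 14 were in the table.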

Additional observations from a re-analysis of the deposited data

Results flagged for a closer look

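Genes whose CPM ratio, imiquimod over untreated, lay past 2-fold in opposite directions in the control and the labelled null members were marked for a closer look; the difference between the genotypes was not tested, since each ratio rests on 1 library a group. 5830411N06Rik, a scavenger receptor gene of dermal gamma-delta T cells, had a log2 ratio of 1.21 in control (44 UMIs in untreated and 24 in imiquimod members) and of -2.21 in the labelled null (27 and 14 UMIs). Ccl4 had a log2 ratio of -3.03 in control (207 and 6 UMIs) and of 2.79 in the labelled null (5 and 83 UMIs). In the supported subset the Ccl4 counts were 90 and 1 in control and 4 and 15 in the labelled null.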

How the results depend on the processing

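Taking every barcode with at least 1 Cd3 UMI gave 1563 members in place of 441. The count of genes past 2-fold followed the minimum of UMIs: with no minimum it was 4934 (control, imiquimod against untreated), 5669 (labelled null, the same), 4821 (labelled null against control, untreated) and 4786 (the same under imiquimod), and with at least 50 UMIs it was 447, 604, 318 and 532. It also moved to 2283 in the labelled null under imiquimod with at least 1 Cd3 UMI, to 898 with at least 3 Cd3 UMIs and 944 with Col1a1 and Krt14 under 1% between the imiquimod libraries, and in the supported subset to 627 (labelled null, imiquimod against untreated), 544 (untreated libraries) and 470 (imiquimod libraries). Thinned to 1000 UMIs, the share with Nkg7 was 25.3% in control untreated and 21.4% in labelled null imiquimod, with Cd4 5.88%, 0% in control imiquimod and 0% in labelled null imiquimod, and with Fcer1g 19.0% and 15.5% in the same 2 libraries as Nkg7.

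Genes on one side in 4 of 4 libraries beside type 17 T cells numbered 548 (higher) and 536 (lower) for the subset, and 604 and 574 with the same limits on both sides, against 944 and 894. Of log2 ratios over type 17 T cells in labelled null imiquimod, Cd7 changed sign to 0.24 for the subset, Klrd1 to 0.38 and 0.041, and Tyrobp to -2.22 and -1.71, the latter value of each with the same limits on both sides. Fewer cells and genes entered these alternatives, and they were chosen after seeing the data.

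Other log2 ratios that changed sign did so as follows; the cause was not tested. With at least 1 Cd3 UMI, Klrd1 and Pi16 were at -0.10 and -0.029 (control, imiquimod against untreated), the cytotoxic list's median at 0.11 (labelled null, the same), Cd7 at -0.31 (untreated libraries), and Tmem176a and Fabp4 at 0.10 and -0.21 (imiquimod libraries). With at least 3 Cd3 UMIs, Naaa was at 0.46 (labelled null) and -1.49 (untreated libraries) and Gpx3 at -2.05 (untreated libraries) and 1.20 (imiquimod libraries). Without cells of 2 myeloid UMIs, Cd207 was at 0.38 (control), Hist1h2ap at -0.0082 (untreated libraries), and the dendritic list's median at -0.42 (labelled null) and -0.76 (imiquimod libraries). Without any type 17 UMI the type 2 list's median was 0.0099 (labelled null). In the supported subset Penk was at -1.48 and H2-DMa at 0.0075 (control), Naaa at 0.87 (labelled null), Them5 at -0.44 (untreated libraries), Gpx3 at 2.27 (imiquimod libraries), and the dendritic list's median at 0.48 (control) and 0.38 (untreated libraries).

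Over the alternatives to the 4 comparisons of libraries, 1009 values of named genes stayed within their error or spread, 227 moved and 16 changed sign; of list medians 645 stayed, 146 moved and 6 changed sign. No named gene and no list median moved or changed sign under TMM scaling. Averaging CPM per cell moved the share of higher genes from 29.6% to 39.5% in control and from 50.6% to 61.7% in the labelled null, imiquimod against untreated. No paired analysis was possible because each group is 1 library. For the same reason no library could be left out, and depth limits coreceptors, Foxp3 and cytokines to a few UMIs.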
